A study of Mus musculus with 10 samples.

Results

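Immunity-related GTPases (IRGs) are a family of large interferon-inducible GTPases, and 7 of their genes, Irgm1, Irgm2, Igtp, Iigp1, Tgtp1, Tgtp2 and Ifi47, were followed here by their symbols. All 7 were present among the 27919 gene symbols of the expression table. The tumors were grown from B16F10, a melanoma line of the C57BL/6 mouse, and carried either an Ly86 overexpression construct (Ly86 tumors) or the vector (Vector tumors). Mice of both groups had received anti-PD-1 and anti-CTLA4, antibodies that block inhibitory receptors of T cells, in 4 rounds, and untreated tumors were not analysed here. Polyadenylated RNA of 7 tumors, 4 Ly86 and 3 Vector, was sequenced in 10 libraries. Ly86 tumor 1, Vector tumor 1 and Vector tumor 2 each gave 2 libraries, called pieces, and the tumor was the replicate. The sources used here give neither the age of the mice nor whether each tumor had its own mouse, so the p-values speak only of the spread from tumor to tumor, which may be partly technical. Values were log2(TPM + 1), where TPM scales transcripts per library to a fixed total and corrects for transcript length. TPM retains no read depth, so the depth behind each value is unknown.

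IRG proteins defend cells against microbes that live in vacuoles. Their genes are switched on by interferon gamma, which T cells and NK cells secrete, in part through the transcription factor IRF1. Irgm1, Irgm2 and Igtp (also called Irgm3) encode the regulators of the family, which sit on host membranes and hold the other members inactive. Iigp1 (Irga6), Tgtp1 and Tgtp2 (both Irgb6) and Ifi47 (Irgd) encode effectors that load onto the vacuole of the microbe. In tumors without such microbes the genes are known mainly as a sensitive readout of interferon gamma.

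Of the 7 genes, all but Iigp1 lie on mouse chromosome 11. Promoter sequences for Irgm1, Irgm2, Igtp, Tgtp1, Tgtp2 and Ifi47 were taken from RefSeq for build GRCm38.p6, and the 250 bases before each gene's start were searched on both strands. The motifs were the ISRE core, GAAANNGAAA, which interferon regulatory factors and ISGF3 bind, and the GAS site, TTCNNNGAA, named for activation by interferon gamma. The windows below are shown because Irgm2, Igtp, Tgtp1 and Tgtp2 carry nearly the same letters there, and Irgm1 is shown for contrast. Each runs 5′ to 3′ on the gene's strand and ends with the ISRE core nearest to the start, with ISRE cores and GAS sites in capitals.
Irgm1, chr11:48871435-48871464, minus strand: ctagcctgtttcaaGAAATAGAAACCGAAA
Irgm2, chr11:58214893-58214922, plus strand: actagccatTTCCAGGAActGAAACTGAAA
Igtp, chr11:58199502-58199531, plus strand: actagccatTTCTAGGAActGAAACTGAAA
Tgtp1, chr11:48992314-48992343, minus strand: actagccatTTCCAGGAAtcGAAACTGAAA
Tgtp2, chr11:49064273-49064302, minus strand: gctagccatTTCCAGGAAtcGAAACCGAAA

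The first base of this ISRE core lay 24 bases before the start of Irgm1, 34 before Igtp, 64 before Irgm2, 70 before Tgtp2 and 77 before Tgtp1. In Irgm2, Igtp, Tgtp1 and Tgtp2 a GAS site stood just before it. The Irgm1 window held 2 overlapping ISRE cores and no GAS letters. Over 30 bases, the Irgm2 window matched that of Igtp at 29 and that of Tgtp1 at 28, while Irgm1 matched each of the others at 18 to 20. No match to either motif was found in the window of Ifi47, a gene with several annotated starts of which the table holds 1. An ISRE core was present in 5 of 6 promoters of these genes and in 2.98% of all 32851 promoters of the table. A GAS site was present in 4 of 6 and in 7.02% of all. Both motifs, at most 10 bases apart, were present in 4 of 6 and in 0.0944% of all. Among neighbours of the family, 2 of 6 promoters of other IRG genes, those of Gm12185 and Gm12250, held the same arrangement. The other 4, of 9930111J21Rik1, 9930111J21Rik2, Gm5431 and Irgq, held neither motif. The promoters of 5 guanylate-binding protein genes held an ISRE core in 5 of 6 entries, the same share as the members. They held a GAS site in 2 of 6, both motifs in 2 of 6 and the close arrangement in 0 of 6. A match describes letters only and was not tested as a site of binding.

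Before the values, the likeness of the genes themselves has to be given, because reads that match several genes can be assigned to any of them. Of the distinct 100-base windows in GENCODE M21 transcripts of Tgtp1, 70.3% were also found in Tgtp2, and 80.4% of those of Tgtp2 were found in Tgtp1. The separate values of Tgtp1 and Tgtp2 are therefore uncertain. Igtp shared 5.16% of its windows with Irgm2, and Irgm2 3.01% with Igtp. Irgm1 and Iigp1 shared 0% with any other gene, and Ifi47 shared 0.561%.

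The regulator genes were abundant in 6 of 7 tumors and low in Vector tumor 1. Irgm1 was at 502 and 515 TPM in the pieces of Ly86 tumor 1, and at 636, 291 and 527 TPM in Ly86 tumors 2, 3 and 4. In the Vector tumors it was at 88.3 and 45.4 TPM in the pieces of tumor 1, 418 and 339 TPM in those of tumor 2, and 326 TPM in tumor 3. In tumor means, the Ly86 tumors other than tumor 3 lay above all Vector tumors, Ly86 tumor 3 lay among the Vector tumors, and Vector tumor 1 lay far below the rest. Igtp, which encodes the third regulator, had the same layout, with 448 and 451, 605, 191 and 406 TPM in Ly86 tumors 1 to 4. In Vector tumors 1 to 3 it was at 42.6 and 16.6, 418 and 279, and 250 TPM. Irgm2 was the least abundant of the 7 genes in every library except the second piece of Vector tumor 1, where Tgtp1 was lower, with 164 and 175, 234, 70.1 and 173 TPM in the Ly86 tumors. Its Vector values were 22.6 and 11.8, 88.2 and 66.2, and 96.3 TPM.

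Among the effectors, Iigp1 was at 342 and 329, 411, 143 and 361 TPM in Ly86 tumors 1 to 4 and at 23.9 and 13.7, 273 and 153, and 189 TPM in Vector tumors 1 to 3. Tgtp1 was at 309 and 300, 517, 133 and 348 TPM in the Ly86 tumors, and Tgtp2 at 404 and 436, 613, 220 and 464 TPM. In Vector tumor 1, Tgtp1 was at 24.6 and 6.98 TPM and Tgtp2 at 54.0 and 16.2 TPM. The other Vector libraries held 179 to 251 TPM of Tgtp1 and 246 to 300 TPM of Tgtp2. Because these genes share most of their sequence, their sum is the safer value, and it was 713 and 737, 1130, 353 and 811 TPM in the Ly86 tumors against 78.7 and 23.2, 551 and 451, and 437 TPM in the Vector tumors. Ifi47 was at 280 and 264, 342, 167 and 282 TPM in the Ly86 tumors and at 36.2 and 17.8, 232 and 132, and 173 TPM in the Vector tumors. For all 7 genes Vector tumor 1 was the lowest tumor, Ly86 tumor 3 the next lowest and Ly86 tumor 2 the highest. Vector tumor 1 was the lowest tumor for 20.3% of the 14556 genes tested.

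**Figure D1:**
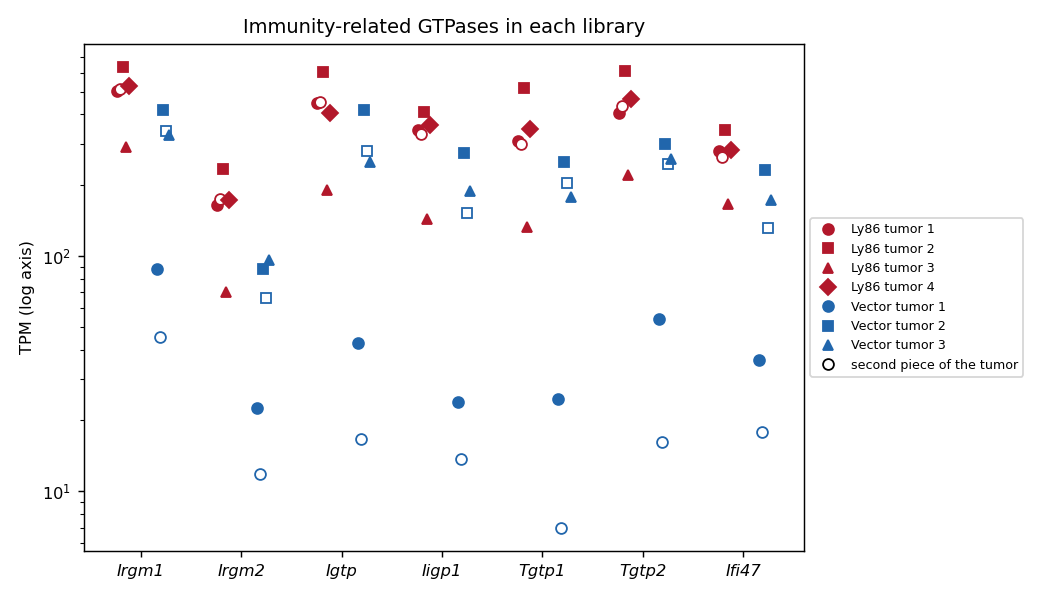
TPM (log axis) of each of the 7 genes in the 10 libraries, Ly86 in red and Vector in blue, with open symbols for second pieces. Vector tumor 1 lies below all other tumors for each gene, and Ly86 tumor 3 lies below Vector tumors 2 and 3 in tumor means.

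The comparison of Ly86 with Vector asked whether these genes differed between the groups, and none passed. All 7 averaged higher in the Ly86 tumors, by 1.24 to 1.81 log2 units, where 43.8% of all tested genes averaged higher. The median over the 7 was 1.56, against -0.037 over all genes tested. A difference of at least 1 log2 unit was reached by 7 of 7 and by 3.67% of all genes. The test was limma on tumor means over the 14556 genes whose mean TPM reached 1, a filter that all 7 members passed, with Benjamini-Hochberg adjustment. In this test 0 of 14556 genes (0%) passed an adjusted p of 0.05, while 1565 (10.8%) had an unadjusted p under 0.05, 841 of them higher in Ly86 (5.78%). Irgm2 and Ifi47 were 2 of these 841. The groups overlapped for all 7 genes, whereas for 4.71% of all genes the lowest Ly86 tumor lay above the highest Vector tumor.

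Tgtp1 had the largest difference of the 7, with a Ly86 mean of 8.20 ± 0.82 (SD, n = 4) and a Vector mean of 6.39 ± 2.22 (SD, n = 3) on the log2(TPM + 1) scale. Its difference was 1.81 (SE 0.93, limma adjusted p = 0.518), and that of Tgtp2 was 1.64 (SE 0.75, adjusted p = 0.479). With the TPM of both summed, the difference was 1.71 (SE 0.82, adjusted p = 0.496). Iigp1 averaged 8.19 ± 0.69 (SD, n = 4) against 6.50 ± 1.95 (SD, n = 3), a difference of 1.68 (SE 0.81, limma adjusted p = 0.497). For Ifi47, the effector with the narrowest spread in the Ly86 tumors, the means were 8.01 ± 0.44 (SD, n = 4) and 6.54 ± 1.57 (SD, n = 3), which differed by 1.47 (SE 0.64, limma adjusted p = 0.463).

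The regulators differed by about as much. Irgm2 averaged 7.22 ± 0.74 (SD, n = 4) against 5.67 ± 1.35 (SD, n = 3), a difference of 1.56 (SE 0.62, limma adjusted p = 0.453). Igtp averaged 8.58 ± 0.71 (SD, n = 4) against 7.06 ± 1.98 (SD, n = 3), a difference of 1.52 (SE 0.82, limma adjusted p = 0.539). Irgm1 had the smallest difference of the 7, at 1.24 (SE 0.59, adjusted p = 0.491), with 8.89 ± 0.49 (SD, n = 4) against 7.64 ± 1.42 (SD, n = 3). Two-sided exact permutation tests over the 35 assignments of the tumors gave p between 0.0857 for Ifi47 and 0.171 for Igtp, where 0.0286 is the smallest possible. In each gene the SD of the Vector tumors was larger than that of the Ly86 tumors.

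The size of the differences depended on Vector tumor 1. Without it the 7 differences were between 0.38 for Igtp and 0.78 for Irgm2, with limma adjusted p from 0.846 to 0.927. With limma's array weights, which gave Vector tumor 3 a weight of 22.8 and every other tumor less than 1, they ranged from 0.66 to 0.91.

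**Figure D2:**
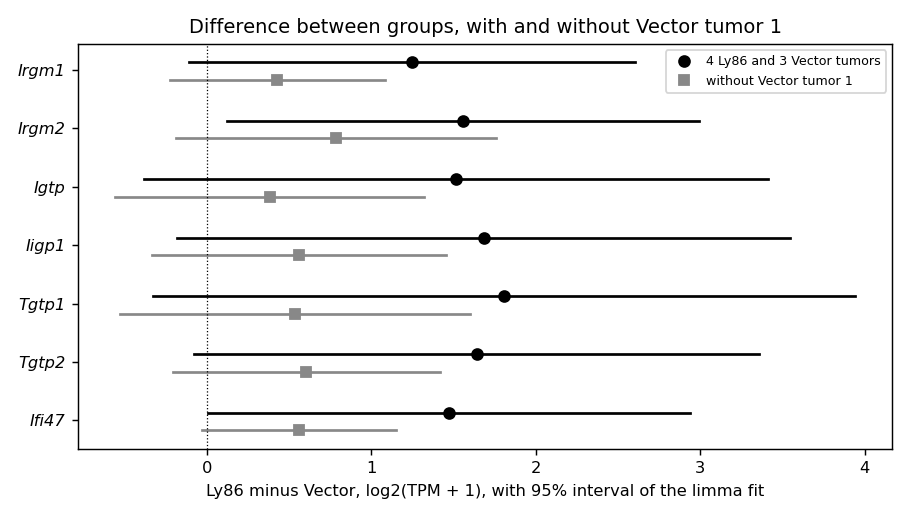
Difference of Ly86 minus Vector tumors on the log2(TPM + 1) scale for each gene, with the 95% interval of the limma fit, for all 7 tumors (black) and without Vector tumor 1 (grey). The black points run from 1.24 to 1.81 and the grey points from 0.38 to 0.78, and the grey intervals all include 0.

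Vector tumor 1 also held the genes in other proportions. The means of Vector tumors 2 and 3 exceeded it by 3.83 log2 units for Tgtp1, a 14.2-fold difference, by 3.41 for Igtp and 3.37 for Iigp1. For Tgtp2, which shares most of its sequence with Tgtp1, the gap was 3.11 log2 units, or 8.63-fold. For Irgm1 the gap was 2.45 log2 units, or 5.46-fold, and for Irgm2 2.32, or 4.99-fold. Irgm1 made up 30.2% and 35.3% of the summed TPM of the 7 genes in the pieces of Vector tumor 1 and 18.9% to 23.9% in the other 8 libraries. Tgtp1 made up 8.43% and 5.43% there and 11.0% to 15.4% elsewhere. Tgtp2 made up 18.5% and 12.6% there and 15.2% to 18.3% elsewhere, so its share was lower only in the second piece. The ratio of Tgtp2 to Tgtp1 was 2.19 and 2.32 there and 1.19 to 1.65 elsewhere. The split of reads between these 2 genes is uncertain, so their separate shares are too. Irgm2 made up 7.73% and 9.19% there and 4.45% to 7.09% elsewhere. Igtp, also a regulator, went the other way, with 14.6% and 12.9% there and 15.7% to 21.1% elsewhere. The effector Ifi47, at 12.4% and 13.8%, lay within its range of 9.27% to 13.8% in the other libraries. The higher share of the 3 regulators together, 52.5% and 57.4% in Vector tumor 1 against 43.2% to 48.2% elsewhere, thus came from Irgm1 and Irgm2. These shares come from 1 tumor and have no test.

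**Figure D3:**
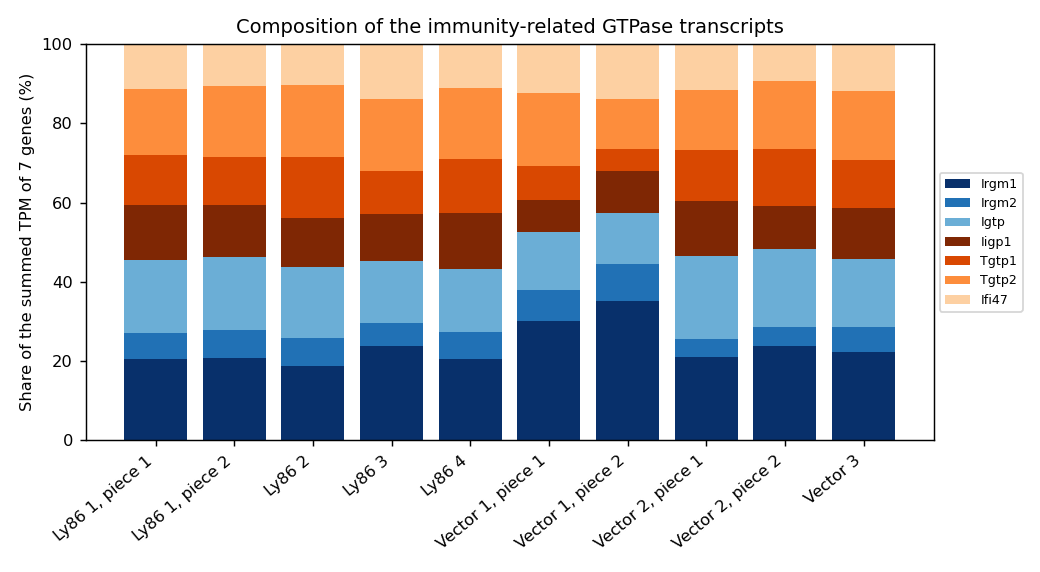
Share of the summed TPM of the 7 genes held by each gene (percent, stacked bars) in each library, regulators in blue and effectors in orange. The regulators hold 52.5% and 57.4% in the pieces of Vector tumor 1, against 43.2% to 48.2% in the other libraries, while the share of Igtp is lower there.

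The pieces of 1 tumor resembled each other most in Ly86 tumor 1, where the summed TPM of the 7 genes was 2450 and 2471. In that tumor the median absolute difference between pieces was 0.058 log2 units over the 7 genes and 0.201 over all tested genes. In Vector tumor 1 the sum was 292.3 TPM in the first piece and 128.5 in the second, a ratio of 2.28, and the first piece was higher for every gene. The median absolute difference there was 0.986 over the 7 genes and 0.209 over all tested genes, whose median ran the other way at -0.132. Tgtp1 was 1.68 log2 units higher there in the first piece, Tgtp2 1.68 and Iigp1 0.76. In Vector tumor 2 the sum was 1981 and 1420 TPM, a ratio of 1.39, with Iigp1 0.83 and Tgtp2 0.29 log2 units higher in the first piece. There the 7 genes differed about as much as all tested genes, with median absolute differences of 0.41 and 0.364.

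Markers of immune and stromal cells moved differently between these pieces. Bulk values cannot tell fewer cells of a type from less RNA per cell. In Vector tumor 2 the summed TPM of 8 macrophage markers was 3150 in the first piece and 211 in the second, a ratio of 14.9. For 8 T cell markers the ratio was 6.33, with 130 and 20.5 TPM, for 5 NK cell markers 7.50 and for 6 fibroblast markers 36.4. The 7 melanocyte markers had a ratio of 0.519. The 7 IRG genes thus differed 1.39-fold between pieces whose macrophage and T cell markers differed 14.9-fold and 6.33-fold. The macrophage markers of that second piece were at 1.09 times the level of the first piece of Vector tumor 1 and 0.700 times that of the second, while its IRG sum was 4.86 and 11.1 times as high and its T cell markers 4.26 and 3.86 times. In Vector tumor 1 the first piece had more IRG transcript but lower macrophage markers, with 194 against 302 TPM. Its T cell and NK cell markers summed to slightly less, at 4.81 against 5.31 TPM and 1.59 against 2.00 TPM. Single genes were near the floor there and split in direction. Cd4, at 0.27 against 1.61 TPM, Cd3d, Cd8b1 and Trac were lower in the first piece. Cd3e, at 0.72 against 0.24 TPM, Cd3g, Cd8a and Cd5 were higher. Of the NK cell markers, Ncr1, Eomes and Klrb1c were lower and Klrk1 and Klre1 higher.

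**Figure D4:**
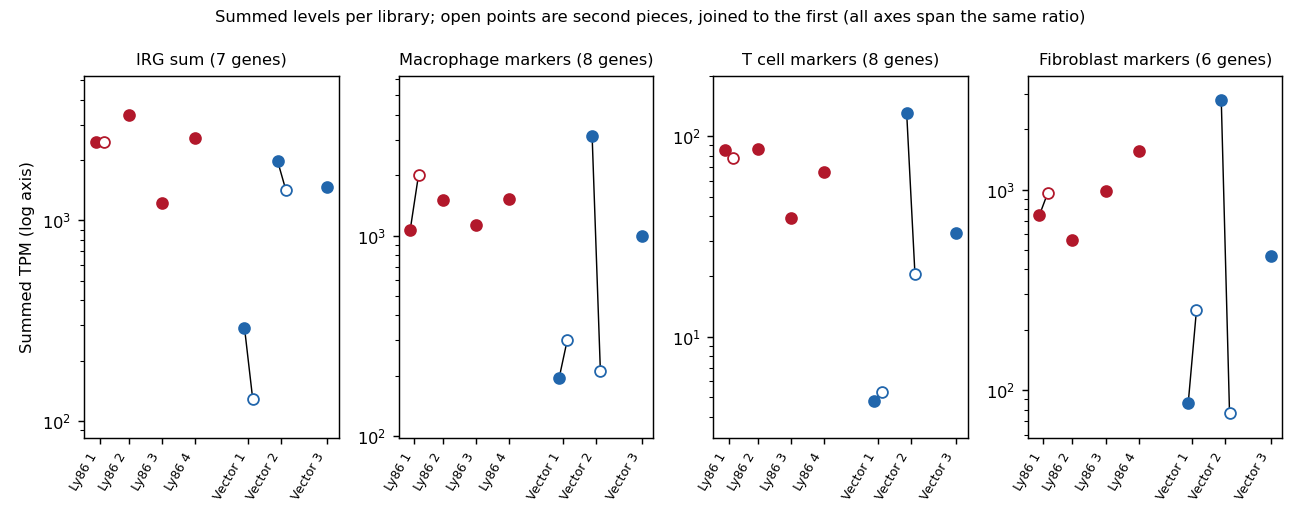
Summed TPM (log axes that span the same ratio) of the 7 IRG genes and of macrophage, T cell and fibroblast markers in each library, with Ly86 in red, Vector in blue and pieces of 1 tumor joined by a line. In Vector tumor 2 the IRG sum changes 1.39-fold between pieces, and the macrophage markers 14.9-fold.

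Over the tumors, the marker lists ran as follows, and their part in the group difference was not tested. All 8 T cell markers averaged higher in the Ly86 tumors, and their sum was 39.0 to 86.8 TPM in Ly86 libraries and 4.81 to 130 TPM in Vector libraries. All 8 macrophage markers averaged higher, with sums of 1070 to 2000 and 194 to 3150 TPM. Both tested NK cell markers averaged higher, with sums over the 5 listed of 8.64 to 34.9 and 1.59 to 28.6 TPM. All 6 fibroblast markers averaged higher, with sums of 561 to 1550 and 76.5 to 2780 TPM. The T cell, macrophage and fibroblast markers had median log2 differences of 1.18, 1.24 and 1.46, against 1.56 for the 7 IRG genes. Without Vector tumor 1 the medians of these 3 lists were 0.465, 0.618 and 0.895, against 0.56 for the IRG genes. The tested NK cell markers had a median of 0.70, or 0.23 without Vector tumor 1. No T cell, macrophage or fibroblast marker was at 0 in any library, whereas the NK receptor gene Ncr1 was at 0 in at least 1. The 7 melanocyte markers, which define the line, were present in every library with sums of 9750 to 19800 TPM, and 3 averaged higher and 4 lower. Of 5 endothelial markers, 3 averaged higher and 2 lower, with a median of 0.10. All 3 tested neutrophil markers, 2 of 3 dendritic cell markers and the 1 tested B cell marker averaged higher, with medians of 0.80, 0.345 and 0.37. All 4 keratinocyte markers averaged lower, with a median of -0.86, and each was at 0 in at least 1 library. Their sum reached 2320 TPM in the first piece of Ly86 tumor 1 and 630 TPM in that of Vector tumor 2, and was at most 75.0 TPM in every other library. All 4 skeletal muscle markers also averaged lower, with a median of -0.805, and summed to 1.06 to 767 TPM in Ly86 libraries and 7.74 to 220 TPM in Vector libraries.

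The interferon gamma pathway showed where the ligand and its signal stood. Ifng, the ligand gene, was at 4.88 and 5.92, 5.24, 2.35 and 5.52 TPM in Ly86 tumors 1 to 4. In the Vector tumors it was listed at 0 and at 0.09 TPM in the pieces of tumor 1, at 6.30 and 2.13 TPM in those of tumor 2, and at 2.44 TPM in tumor 3. The tumor with the lowest Ifng was thus also the lowest for the 7 GTPase genes, and Ly86 tumor 3 was the lowest Ly86 tumor for both. Between the pieces of Vector tumor 1, the one with Ifng at 0 had the higher GTPase values, but both Ifng values lie near the floor. Ifng differed between the groups by 1.07 log2 units (SE 0.52, limma adjusted p = 0.497). Irf1, the transcription factor gene, held 234 and 239, 281, 117 and 201 TPM in the Ly86 tumors and 36.7 and 27.5, 226 and 130, and 125 TPM in the Vector tumors. Its difference was 1.16 (SE 0.55, limma adjusted p = 0.491). Socs1, a feedback inhibitor, differed by 1.54 (SE 0.39, limma adjusted p = 0.437). In tumor means it was the only gene of 16 on this list that was higher in every Ly86 tumor, as were 4.71% of all tested genes. By library, Ly86 tumor 3 held 6.4 TPM of Socs1 and the first piece of Vector tumor 2 held 6.44 TPM. The receptor genes Ifngr1 and Ifngr2 differed by 0.37 (SE 0.28) and -0.11 (SE 0.14), and the kinase genes Jak1 and Jak2 by 0.20 (SE 0.18) and 0.24 (SE 0.22). Ptpn11, a phosphatase gene, differed by -0.35 (SE 0.15). Of the 16 genes, 14 averaged higher and 0 passed, with a median of 0.45, or 0.085 without Vector tumor 1.

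Type I interferon genes were followed because they can also act through the ISRE. Of the listed ligand genes, Ifnb1 and Ifna4 were absent from the expression table. Ifna2 was at most 0.49 TPM in any library and was not tested. Of 8 tested receptor and signaling genes, 7 averaged higher and 0 passed, with a median of 0.55, or 0.24 without Vector tumor 1. The ISGF3 subunit gene Irf9 differed by 0.64 (SE 0.23, limma adjusted p = 0.441) and the receptor gene Ifnar2 by 0.46 (SE 0.18, adjusted p = 0.453). All 16 type I interferon stimulated genes averaged higher and 0 passed, with a median of 0.88, or 0.38 without Vector tumor 1. Ifit1, which binds foreign RNA, differed by 1.01 (SE 0.33, limma adjusted p = 0.437) and Ddx60, a helicase gene, by 1.03 (SE 0.36, adjusted p = 0.441). Vector tumor 1 was the lowest tumor for all 16, as also for all 11 guanylate-binding protein genes, and for 20.3% of all tested genes.

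The guanylate-binding proteins, partner GTPases that act on the same vacuoles, all averaged higher, 11 of 11 tested, and 0 passed. Their median was the difference of Gbp2, 1.295, and 0.26 without Vector tumor 1. Gbp2b and Gbp8 differed by 1.89 (SE 0.72) and 1.67 (SE 0.74), with limma adjusted p of 0.449 and 0.468. Of 10 other tested genes of the IRG family, 9 averaged higher and 0 passed, with a median of 0.96, or 0.32 without Vector tumor 1. Gm12250, which encodes the effector Irgb10, was at 112 and 101, 140, 40.8 and 106 TPM in the Ly86 tumors and at 7.48 and 4.00, 107 and 70.0, and 62.2 TPM in the Vector tumors. Its difference was 1.46 (SE 0.86, limma adjusted p = 0.568). Gm5431 and Gm4841 differed by 0.98 (SE 0.36, adjusted p = 0.441) and 1.52 (SE 0.64, adjusted p = 0.455). Irgq, a distant member, was at 6.46 to 10.3 TPM in all 10 libraries and differed by -0.025 (SE 0.17). Irgc1, known from testis, was at most 0.34 TPM.

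The machinery of autophagy, whose conjugation proteins steer IRG and guanylate-binding proteins to their membranes, averaged near 0. Of 21 tested genes, 13 averaged higher, 8 lower and 0 passed, with a median of 0.027. Gabarap, a membrane-anchored ubiquitin-like protein gene, differed by 0.28 (SE 0.092, limma adjusted p = 0.437), and Atg9a, a lipid scramblase gene, by -0.37 (SE 0.12, adjusted p = 0.437). Atg5 and Atg3, needed for conjugation, differed by -0.00043 (SE 0.17) and 0.017 (SE 0.11). Trim21, a ubiquitin ligase gene, had the largest difference of this list, 0.82 (SE 0.33, adjusted p = 0.453).

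**Figure D5:**
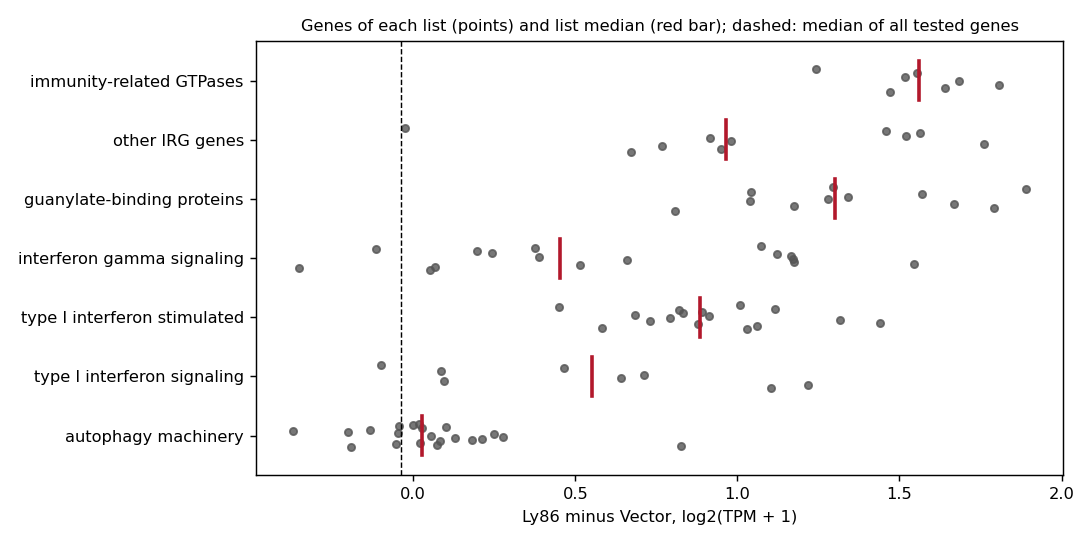
Difference of Ly86 minus Vector tumors on the log2(TPM + 1) scale for each tested gene of 7 lists (points), the median of each list (red bar) and the median of all tested genes (dashed line). The 7 IRG genes lie between 1.24 and 1.81, and the autophagy genes have a median of 0.027.

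The 7 genes varied together over the tumors, with Pearson correlations between pairs of 0.964 to 0.999 over 7 tumors and 0.887 to 0.991 over 6 without Vector tumor 1. Tumor means share library scaling and Vector tumor 1, so these values are a description. Among 2561 tested genes with an SD of at least 0.5 over the tumors, those whose pattern was most like the mean of the 7 included Slc11a1, Ube2l6, H2-T22 and Ifi203, at 0.998 to 0.994. Slc11a1 encodes a metal transporter of phagosomes, Ube2l6 an enzyme that attaches ISG15, H2-T22 a nonclassical MHC class I protein and Ifi203 a protein of the interferon-inducible PYHIN family. Without Vector tumor 1 they were at 0.975 to 0.986. Of the 2561 genes, 506 other genes reached 0.9 over 7 tumors, and 130 of them reached it also over 6. Likeness over tumor means did not extend to the pieces for Slc11a1. In Vector tumor 2 it was 11.0-fold higher in TPM in the first piece, where the IRG sum was 1.39-fold and Irf1 1.74-fold higher.

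Ly86 itself, checked in every library, was at 49.1 and 81.9, 53.2, 58.9 and 75.4 TPM in the Ly86 tumors and at 6.24 and 9.88, 80.9 and 7.85, and 30.3 TPM in the Vector tumors. Its difference between the groups was 1.69 (SE 0.40, limma adjusted p = 0.437), so it did not pass. In tumor means all Ly86 tumors lay above all Vector tumors, as for 4.71% of all tested genes. The first piece of Vector tumor 2 lay within the range of the Ly86 libraries. The sources used here do not say if transcripts of the construct are counted in this gene. The order of tumors by Ly86 was not that of the IRG genes. By the mean of Ly86 on the log2(TPM + 1) scale, Vector tumor 1 was lowest at 3.15, followed by Vector tumor 2, by Vector tumor 3 at 4.97 and by Ly86 tumors 2, 3, 1 and 4 at 5.76, 5.90, 6.01 and 6.26. Ly86 tumor 2, the highest tumor for all 7 IRG genes, was thus the lowest Ly86 tumor for Ly86. The pieces of Ly86 tumor 1 differed by 0.73 log2 units for Ly86, more than the means of the Ly86 tumors. Their order by Ly86 is therefore uncertain. Ly86 tumor 3 lay above Vector tumors 2 and 3 for Ly86 and below them for the IRG genes. Between the pieces of Vector tumor 2, Ly86 differed 10.3-fold, the macrophage markers 14.9-fold and the IRG sum 1.39-fold. In Ly86 tumor 1 and Vector tumor 1 the first piece held 0.600 and 0.632 times the Ly86 of the second. For macrophage markers these ratios were 0.536 and 0.643. How much of the Ly86 transcript came from macrophages was not tested.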

How the data were processed

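The deposited table holds log2(TPM + 1) values for 27919 gene symbols in 10 libraries. The scale was read from the values: 2 raised to a value, minus 1, fell on steps of 0.01 (tolerance 1e-04 hundredths) in 99.9% of cases and summed to between 994679 and 996446 per library. Per the submitters' processing notes, STAR 2.7.10b, RSEM 1.3.3 and build mm39 were used, while the sources used here do not state how multiply mapping reads and repeated symbols were handled. The planned test assumed TPM and needed no change. Log2 values of pieces were averaged per tumor. The 14556 genes whose mean TPM reached 1 were tested with limma 3.58.1 in R 4.3.3 (lmFit, eBayes with trend) with Benjamini-Hochberg adjustment, and the fit was tested on simulated data. Fold changes on this scale understate changes of low genes.

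The members, gene lists and tests were chosen with earlier results of these data known. The lists were other IRG genes, interferon gamma signaling, type I interferon signaling, type I interferon stimulated genes, guanylate-binding proteins, autophagy machinery and cell type markers. The rule named the 2 tested genes with the smallest p in each list and the 6 genes most like the members by Pearson correlation, leaving out Gm and Rik names, and 2 of these 6 are not reported here. Genes outside these rules were named from the fixed lists. Alternatives were pseudocounts of 0.1 and 0.5, no filter, a minimum mean TPM of 5, other scalings, other uses of the pieces, other variance models, the tumor number as a block, summed Tgtp1 and Tgtp2, and leaving out each tumor. Promoters and coordinates are those of RefSeq on GRCm38.p6, not the build of the files. Figures used matplotlib 3.10.9 in Python 3.11.15.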

Additional observations from a re-analysis of the deposited data

Results flagged for a closer look

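Of 28 genes checked in the 4 Ly86 tumors, 2 had a tumor far from the others by Dixon's test, both in Ly86 tumor 3, and chance marks about 1 in 20 such groups. Ifng was at 1.74 log2(TPM + 1) in Ly86 tumor 3 and at 2.64 to 2.71 in the other Ly86 tumors. Ifi203 was at 5.09 there and at 6.25 to 6.40 in the others. The 7 GTPase genes were also lowest in that tumor among the Ly86 tumors, without passing the same test.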

How the results depend on the processing

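Under 24 alternatives the median difference of the 7 genes stayed above 0, from 0.56 without Vector tumor 1 to 2.18 without Vector tumor 2, and 0 members passed in any. Over all genes, 0 passed an adjusted p of 0.05 in the fit reported and in 17 alternatives. Where the divided tumors were represented by their first pieces alone the count was 1, by their second pieces alone 37, after dropping piece 1 of Vector tumor 2 it was 3, and under array weights 1832. At an unadjusted p under 0.05 the count of 1565 became 315, 3268, 2970 and 4887 in the same order. Leaving out each tumor in turn gave 0 to 2 genes past the adjusted threshold (2 without Ly86 tumor 2, 1 without Ly86 tumor 3 and 1 without Vector tumor 1) and 870 to 2574 at the unadjusted p, with 983 without Ly86 tumor 4, 870 without Vector tumor 1, 2574 without Vector tumor 2 and 1012 without Vector tumor 3. With the tumor number as a replicate block, 645 genes had an unadjusted p under 0.05, 0 passed the adjusted threshold and the members differed by 1.19 to 1.73. Same-numbered tumors had correlations of deviations of -0.17, -0.11 and -0.31, and differently numbered tumors of -0.22 to 0.35. With so few tumors these values cannot tell whether the numbers pair them. Causes of these shifts were not tested. Among the 6 pathway lists, the median of the guanylate-binding proteins ran from 0.26 to 2.02 (1.295 in the fit reported), of interferon gamma signaling from 0.085 to 0.82 (0.45), of the other IRG genes from 0.32 to 1.51 (0.96), of type I interferon signaling from 0.24 to 0.70 (0.55), of type I interferon stimulated genes from 0.38 to 1.303 (0.88) and of the autophagy machinery from -0.0084 to 0.076 (0.027). Leaving out Vector tumor 1 gave the lowest value of each but the last. Depth is unknown, so counting error could not be given.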
